A study of Mus musculus with 32 samples.

Results

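The comparison described here asked how the transcriptional effect of ablating adiponectin-lineage cells in mouse bone marrow changed between the second and the third day of diphtheria toxin. It used 16 of the 32 RNA-seq libraries of the series, chosen by label as the 4 libraries of each genotype at each of those 2 days, and all 14527 genes that passed the filter on low counts. The quantity reported throughout as the shift is a difference of differences on the log2 scale: the genotype effect at day 3 (DTRADQ over Con) minus the genotype effect at day 2. A negative shift means that the ratio of DTRADQ to Con was lower at day 3 than at day 2, whatever its level at day 2. The DTRADQ mice were C57BL/6 animals with the DTR flox allele and ADQ Cre+, obtained by mating iDTR mice to an adiponectin-Cre line. The Con mice were their littermates with DTR flox and No Cre. All were 2 months old and received 100 ng of diphtheria toxin per mouse by intraperitoneal injection each day, so that the allele and the toxin were common to all 4 groups and the Cre alone set the genotypes apart. The title of the series concerns marrow adipocyte ablation through the toxin receptor, heparin-binding EGF-like growth factor, and bone formation. RNA came from whole femoral marrow, and the adiponectin-driven Cre acts in every cell that has expressed adiponectin, which in marrow includes reticular stromal cells as well as adipocytes.

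Adiponectin-lineage stromal cells secrete CXCL12, stem cell factor and other signals on which blood-forming cells depend. Red cell precursors mature in marrow in a fixed order: cells that still divide take up iron through the transferrin receptor, build heme and assemble the membrane skeleton, and the oldest precursors carry mostly globin and late heme mRNA. Stromal cells that survive or refill an injured marrow make fibrillar collagens, the enzymes that crosslink them, and contractile proteins, which are textbook features of a repair response.

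In the marrow of DTRADQ mice, 13 of 25 erythroid regulator and membrane genes fell between day 2 and day 3 relative to controls. Among the rises were 7 of 15 skeletal muscle genes, 3 of 17 collagen chains and 6 of 23 matricellular genes. With muscle level as a covariate, 0 of the erythroid and collagen genes and 1 matricellular gene passed. That level is the mean of the muscle list itself, so the 0 muscle genes that passed with it were set in advance. Leaving out DTRADQ day 2 replicate 1 or Con day 2 replicate 2 also left 0 muscle genes passing. Of 26 genes that mark the ablated lineage, 16 were already called lower at day 2, and the 2 that passed the threshold for the shift were the PDGF receptor genes; Adipoq, Cxcl12, Lepr and Kitl did not pass. Of the genes tested, 198 (1.36%) passed the threshold for the shift, an adjusted p under 0.05 from edgeR's quasi-likelihood test; 54 (0.372%) rose and 144 (0.991%) fell. The total of 198 ran from 59 to 318 when 1 library was left out, and was 340 in DESeq2, 445 in a fit of only the groups compared, 707 in voom and 475 without 2 untreated Con libraries. The genotype effect itself was called for 1238 genes (8.52%) at day 2, 639 higher (4.4%) and 599 lower (4.12%), and for 3330 genes (22.9%) at day 3, 1279 higher (8.8%) and 2051 lower (14.1%). Without the 2 untreated Con libraries the genotype effect at day 2 was called for 2896 genes and the genotype effect at day 3 for 5023. The median shift over all genes was -0.02. Across all genes tested the effects of the 2 days had a Pearson r of 0.64 and a Spearman rho of 0.61; genes are not independent replicates, and every effect at 1 day comes from the same 8 libraries.

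**Figure D1:**
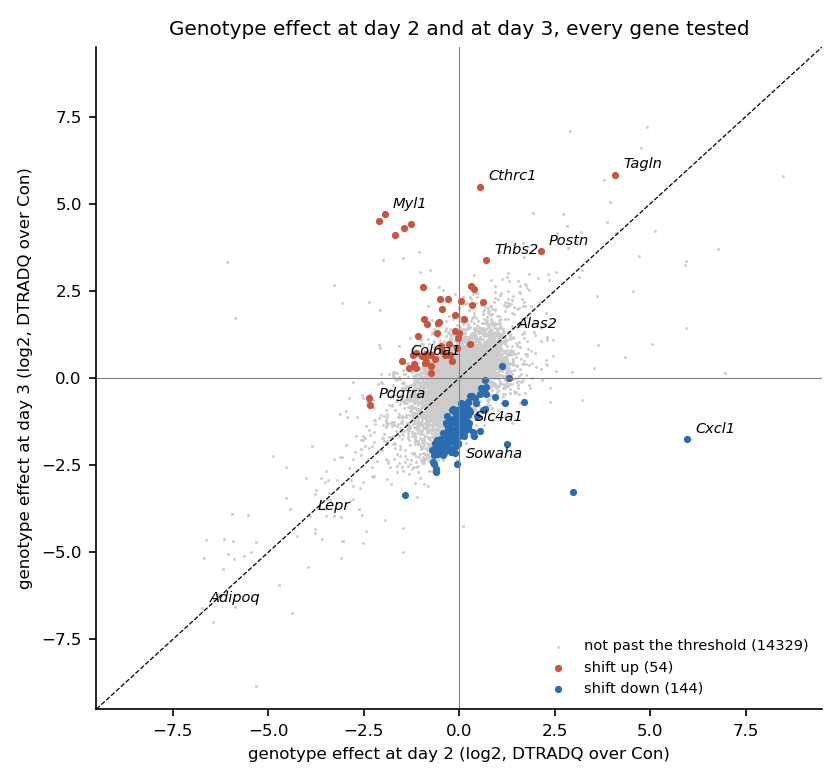
Genotype effect at day 2 (horizontal axis, log2 of DTRADQ over Con) against the effect at day 3 (vertical axis, same unit) for 14527 genes, with the dashed line marking equal effects. The 54 genes of the upward shift lie above the line and the 144 of the downward shift below it, most of the latter near 0 on the day 2 axis, while Adipoq and Lepr lie close to the line.

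Most of the change between the days was within DTRADQ. Between day 2 and day 3, 817 genes (5.62%) were called within DTRADQ, 238 higher (1.64%) and 579 lower (3.99%), and 0 (0%) within Con, where 841 genes had an unadjusted p under 0.05, the smallest adjusted p was 0.3347 in edgeR, and DESeq2 called 1. Of the 144 genes that fell, 142 were also called within DTRADQ, with a median change of -1.38 there and 0 within Con. Of the 54 that rose, 47 were called within DTRADQ, with a median change of 1.34 there and -0.31 within Con. All 8 day 3 libraries carry lane 8 in their run label and the 8 day 2 libraries carry no single lane, so a change within 1 genotype cannot be told apart from the lane, whereas within a day both genotypes share that label.

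Library depth was 11537834 to 14458590 counted reads at day 2 and 15738814 to 22929352 at day 3. In these libraries the defining genes of marrow were abundant, with Hba-a1 from 7780 to 26800 CPM and Ly6g from 110 to 249. CPM here are counts scaled to each library's total after TMM normalization, and so differ from the deposited CPM. In whole marrow, fewer cells of a type and less RNA per cell cannot be told apart. One library stood apart from its group in several of the lists described below. The library labelled DTRADQ day 2 replicate 1 had a mean log2 CPM over 16 contractile and CCN genes of 4.87, against 5.46 to 5.74 in the other 3 libraries of its group and 4.68 to 5.01 in the DTRADQ libraries of day 1. Its mean over 25 erythroid genes was 7.11, against 5.97 to 6.94 in the other 3 and 7.07 to 7.48 at day 1. Its mean over 22 mitosis genes was 7.4 (others 6.82 to 7.07, day 1 7.36 to 7.55), and over 21 cytokine genes 3.53 (others 3.01 to 3.05, day 1 3.41 to 4.05). In these 4 lists it lay inside the day 1 range and outside that of its own group. For erythroid genes it also lay inside the Con day 2 range of 6.85 to 7.31, and for mitosis genes inside that of 7.13 to 7.41. The Con day 2 ranges were 4.04 to 4.36 for contractile genes and 2.18 to 2.39 for cytokine genes. For collagens, at 1.57, it lay between the day 1 range of 1.26 to 1.39 and the other 3 at 2.36 to 2.57. Without this library 59 genes were called for the shift, 17 higher and 42 lower, all 59 among the 198. The estimates of all 198, which were picked with this library included, kept their sign without it, with medians of 1.57 for the 54 and -1.19 for the 144.

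**Figure D2:**
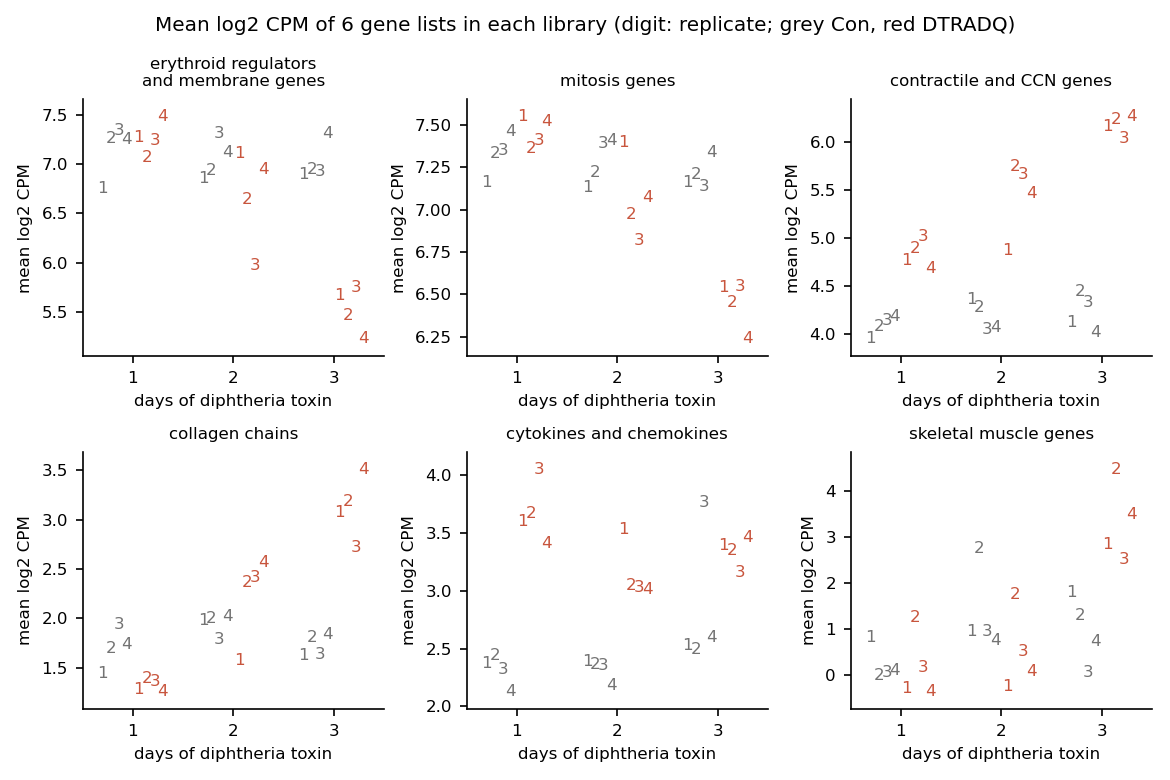
Mean log2 CPM of 6 gene lists (vertical axes) in each library of days 1 to 3 of diphtheria toxin (horizontal axes); each digit is a replicate, grey for Con and red for DTRADQ. DTRADQ day 2 replicate 1 sits near the day 1 libraries for erythroid, mitosis, contractile and cytokine genes, DTRADQ day 2 replicate 3 is the lowest of its day for erythroid genes, and the muscle panel shows DTRADQ day 3 replicates 2 and 4 highest.

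Of the lists with a call, skeletal muscle genes had the highest median shift. The 15 muscle genes tested summed to 151, 781, 151 and 329 CPM in the 4 DTRADQ day 3 libraries, to 86.1, 62.5, 55.6 and 56.2 in Con at day 3, to 39.3, 82.1, 36.3 and 42.6 in DTRADQ at day 2, and to 63.6, 196, 60.1 and 58.3 in Con at day 2. Every DTRADQ library of day 3 was above every Con library of that day, and replicate 2 stood above the rest of its group in both genotypes at day 2. For the shift, 7 of the 15 rose and 0 fell (0.372% of all genes rose), with a median of 3.06. Without DTRADQ day 2 replicate 1 or without Con day 2 replicate 2, 0 of the 15 passed, at medians of 2.66 and 1.98. Without DTRADQ day 3 replicates 2 and 4, 0 passed at a median of 3.49. The largest rises were those of Myl1 and Pvalb, a myosin light chain and a calcium buffer of fast fibres. Myl1 stood at 12.3, 140, 20 and 48.1 CPM in DTRADQ at day 3 against 4.65, 3.16, 0.0903 and 0.532 in Con, a shift of 6.65 ± 1.71 (SE; edgeR adjusted p = 0.0421) that was called in 6 of 16 fits leaving out 1 library. Whether muscle carried over with the marrow was not tested. Muscle level, where used as a covariate, was the mean log2 CPM of these 15 genes in each library. It was 2.52 to 4.48 in DTRADQ and 0.06 to 1.79 in Con at day 3. At day 2 it was -0.26 to 1.76 in DTRADQ and 0.75 to 2.75 in Con. It thus partly follows the DTRADQ day 3 group, on which the shift depends. With this covariate 20 genes were called (6 higher, 14 lower). Without DTRADQ day 3 replicates 2 and 4, the pair highest in muscle genes, 1 gene was called, Thbs2. Without the other pair of that group 162 were. The signs of all 198 estimates, which were picked on these same libraries, stayed as they were in these 3 fits. For the first 2 of these fits, the counts and medians of the main gene groups are given beside those groups. Without the other pair, 11 erythroid genes fell at a median of -1.55. In that fit 2 collagen chains, 5 matricellular genes and 10 muscle genes rose, at medians of 1.42, 1.16 and 2.69.

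Among the lists, the most falls were in genes of the red cell membrane, although the largest single falls lay outside them. Of 25 erythroid regulators and membrane genes tested, 13 fell and 0 rose (0.991% of all genes fell), with a median shift of -1.33 over the 25. At day 2 their median genotype effect was -0.45, with 1 called higher and 3 lower (4.4% and 4.12% of all genes). At day 3 it was -1.62, with 24 of 25 called lower (14.1% of all genes were). None of the 13 was called at day 2. In 19 of the 25, every DTRADQ library of day 3 lay below every DTRADQ library of day 2, which held for 8.23% of all genes.

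The first of these genes can be set beside their promoters, which show what a group that moved together holds at its start sites. The sequences are the 250 bases upstream of the RefSeq start (GRCm38.p6), 5′ to 3′ on the gene's strand, with each AGATAA in capitals on either strand (TTATCT where it lies on the other). AGATAA is one of the forms that GATA factors read; other forms, TGATAA among them, were not searched and stay in lower case. Of the 13 genes, 8 had an entry, and 4 of those 8 (50%) held AGATAA; of all 27025 genes with an entry 11.4% did, as did 16.2% of the 111 matched genes that fell and 2.5% of the 40 matched genes that rose. Rhd (chr4:134864286-134864535, plus strand), Trim10 (chr17:36869324-36869573, plus strand) and Kel (chr6:41704326-41704575, minus strand) hold a match, and Rhag (chr17:40810899-40811148, plus strand), the member with the largest fall, holds no AGATAA.
Rhd: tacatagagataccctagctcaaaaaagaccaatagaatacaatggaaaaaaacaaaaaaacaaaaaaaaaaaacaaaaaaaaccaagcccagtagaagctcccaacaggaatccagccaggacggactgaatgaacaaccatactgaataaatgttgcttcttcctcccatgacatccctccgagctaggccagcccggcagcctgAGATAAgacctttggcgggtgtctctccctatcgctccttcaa
Trim10: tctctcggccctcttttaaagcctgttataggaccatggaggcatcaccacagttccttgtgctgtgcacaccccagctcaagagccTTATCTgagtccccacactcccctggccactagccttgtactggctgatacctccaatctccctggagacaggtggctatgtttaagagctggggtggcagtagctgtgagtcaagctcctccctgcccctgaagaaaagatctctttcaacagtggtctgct
Kel: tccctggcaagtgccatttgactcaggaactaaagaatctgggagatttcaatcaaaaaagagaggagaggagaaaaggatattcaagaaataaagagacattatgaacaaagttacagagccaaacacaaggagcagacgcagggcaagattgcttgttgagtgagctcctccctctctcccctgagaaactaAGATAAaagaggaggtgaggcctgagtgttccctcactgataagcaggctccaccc
Rhag: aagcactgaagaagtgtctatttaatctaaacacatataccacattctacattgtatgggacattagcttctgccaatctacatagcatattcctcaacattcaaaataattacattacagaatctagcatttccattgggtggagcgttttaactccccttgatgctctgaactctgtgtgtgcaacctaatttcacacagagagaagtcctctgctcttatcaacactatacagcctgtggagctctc
The match lies 43 to 38 bases before the start in Rhd, 163 to 158 before it in Trim10 and 56 to 51 before it in Kel. A match is a description of letters and not a bound site.

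Rhag, which encodes the Rh-associated glycoprotein of the red cell membrane, had 362, 403, 579 and 506 CPM in Con and 635, 384, 225 and 550 in DTRADQ at day 2, and 420, 429, 397 and 525 in Con against 150, 110, 148 and 84.1 in DTRADQ at day 3. The genotypes overlapped at day 2 and did not at day 3, and its shift was -1.80 ± 0.37 (SE, edgeR adjusted p = 0.0099). Rhd, its partner in the Rh complex, was at 961, 529, 293 and 676 CPM in DTRADQ at day 2 and at 213, 180, 235 and 124 at day 3, a shift of -1.56 ± 0.39 (edgeR adjusted p = 0.0372). Kel, a blood group metalloprotease, went from 218, 132, 65.6 and 174 CPM to 59.7, 45.9, 59.6 and 33.4 within DTRADQ (shift -1.33 ± 0.33, edgeR adjusted p = 0.0389). In each of these 3 genes the lowest DTRADQ library of day 2 was replicate 3, and it was still above every DTRADQ library of day 3.

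Epb42, which links band 3 to the skeleton, had 362, 284, 169 and 369 CPM in DTRADQ at day 2 and 110, 69.4, 113 and 64.6 at day 3, while Con ranged from 220 to 352 and from 239 to 345. Its shift was -1.72 ± 0.29 (edgeR adjusted p = 0.0032), with a genotype effect of 0.11 at day 2 and -1.61 at day 3.

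Slc4a1, the anion exchanger known as band 3, was at 1530, 1350, 809 and 1680 CPM in DTRADQ at day 2 and at 485, 378, 565 and 330 at day 3, while Con ranged from 987 to 1470 and from 1010 to 1460. Its shift of -1.60 ± 0.32 (edgeR adjusted p = 0.0099) was called in all 16 fits that left out 1 library, as were those of Epb42, Rhag and Trim10, a ring finger protein of erythroid cells. In each of Rhag, Epb42 and Slc4a1 the genotypes overlapped at day 2 and were apart at day 3. Cldn13, Ank1, Add2, Ermap and Xk also fell, among them the ankyrin and adducin of the membrane skeleton; over the 13 the shift ran from -1.80 to -1.15, the effect at day 2 from -0.60 to 0.18 and the change within Con from -0.24 to 0.10.

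**Figure D3:**
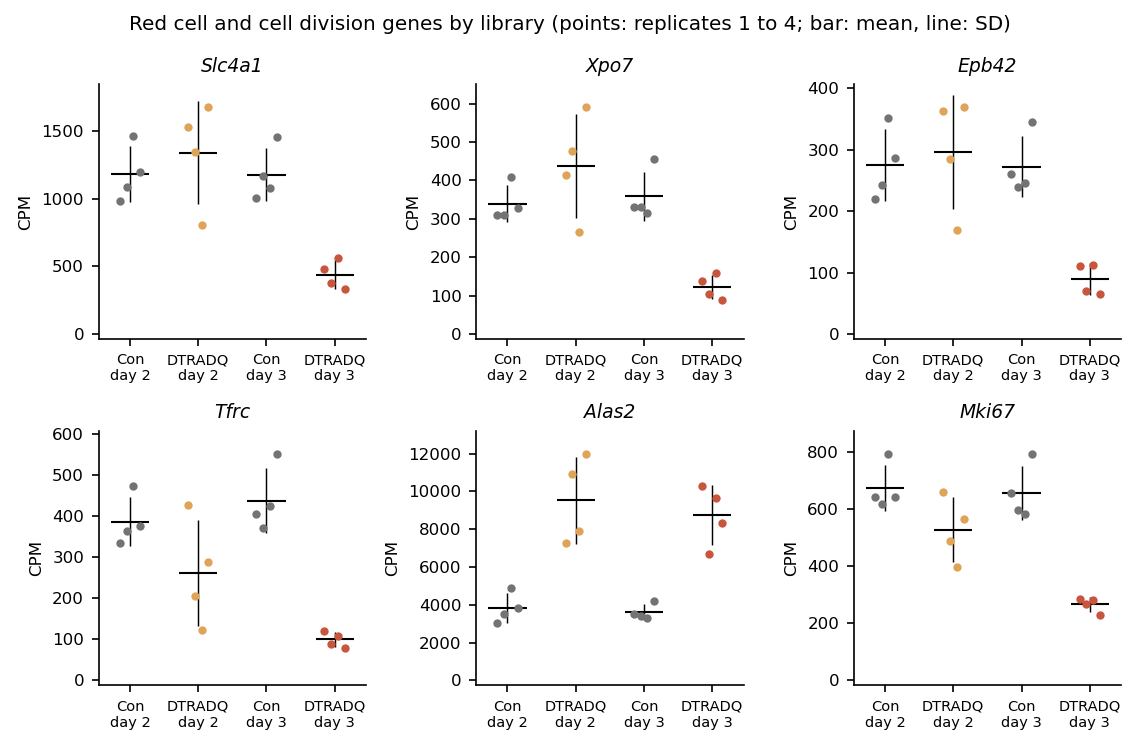
CPM (vertical axes, linear from 0) of 6 genes in the 4 groups of days 2 and 3; points are the 4 libraries of each group, the horizontal bar their mean and the vertical line the SD. Slc4a1, Xpo7, Epb42, Tfrc and Mki67 are lowest in DTRADQ at day 3, and Alas2 is above Con in DTRADQ at both days.

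Neither Klf1 nor Gata1 passed for the shift. Klf1, the erythroid Krüppel-like factor, was at 34.5, 19.9, 9.27 and 24.1 CPM in DTRADQ at day 2 and at 8.39, 10.7, 11.8 and 6.30 at day 3. Its shift was -1.34 ± 0.53 (edgeR adjusted p = 0.2736). Of the 10 alternatives other than leaving out 1 library, Klf1 did not pass in 9 and passed in the other. Gata1, the master regulator of the lineage, had a shift of -0.48 with a 95% interval of -0.91 to -0.06 and an adjusted p of 0.387 in edgeR. Both were lower in DTRADQ at day 3, with genotype effects of -2.28 and -0.83. Epb41, whose protein 4.1R also sits in the skeleton, was the 1 member higher in DTRADQ at day 2 (effect 1.16), and its shift was -0.73.

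Without DTRADQ day 2 replicate 1, 5 of the 25 erythroid genes passed and the median was -1.0, and without DTRADQ day 2 replicate 3, the library of its group lowest in these genes, 16 passed and the median was -1.52. Without Con day 2 replicate 2, 5 passed at a median of -1.27. The median was -1.29 with muscle level as a covariate and -1.06 without the muscle-high pair of day 3, and in both fits 0 passed.

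Several called genes outside the lists have well-known red cell roles; they were picked after their values were seen. Hemgn, the nuclear protein hemogen, had a shift of -1.65, as did Abcg2, a transporter that protects cells from porphyrins, and Sox6, a factor of terminal erythroid maturation. Art4, Ackr1 and Slc14a1 carry the Dombrock, Duffy and Kidd blood groups in humans and shifted by -1.62, -1.4 and -1.08. Dmtn, Tmod1 and Gypc, which tie or cap the actin of the membrane skeleton, shifted by -1.5, -1.34 and -1.25. Of the 144 genes that fell, 122 were in no list.

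By size, the rule for the largest falls named Oas1e, Sowaha, Gfap, Plek2, Tmcc2, Hist3h2ba, A730036I17Rik, Tmem56, Pdzk1, Xpo7, Tspan8 and Nhlrc4. Sowaha, an ankyrin repeat gene, was at 24, 28.7, 16.8 and 37.4 CPM in DTRADQ at day 2 and at 6.32, 3.60, 6.01 and 3.61 at day 3, while Con ranged from 19.6 to 35.7 and from 20 to 35.5. Its shift was -2.43 ± 0.39 (edgeR adjusted p = 0.0025). Xpo7, a nuclear export factor that works during erythroid chromatin condensation, went from 414, 478, 266 and 591 CPM to 138, 103, 160 and 89.0 within DTRADQ, and its shift was -1.91 ± 0.36 (edgeR adjusted p = 0.0065). Sowaha, Xpo7 and Tmcc2 (shift -2.05) were among the genes still called with muscle level as a covariate. Dyrk3, a kinase of erythroid progenitors and likewise picked after its values were seen, was another of them, with a shift of -1.71 ± 0.25 (edgeR adjusted p = 0.0010).

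Some of these falls carry limits of their own. Oas1e, of the oligoadenylate synthetase family whose near copies can share reads, was at 4.05, 4.81, 3.53 and 15.1 CPM in DTRADQ at day 2 and at 0.927, 0.886, 0.925 and 0.293 at day 3, against 1.94 to 3.36 in Con over both days, and its shift was -3.16 ± 0.65 (edgeR adjusted p = 0.0101). Nhlrc4 lies within the span of Pigq, which also fell (shift -1.14), and the strand setting of the counting is not given in the sources used here, so their reads may not be separable. Across the 198 called genes, 70 overlap the span of another annotated gene, Sowaha, Xpo7, Tmcc2, Gfap, Tagln, Fstl1, Fbn1 and Kdelr3 among those named here, in each case a gene on the opposite strand.

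Heme, globin and iron genes leaned down in the shift and had calls on both sides in the genotype effect at day 3. Of 25 tested, 2 fell and 0 rose (0.991% of all genes fell), with a median shift of -0.48. The estimate was below 0 in 21 of the 25, as in 7552 of all 14527 genes. At day 3, 4 were called higher and 12 lower in DTRADQ (8.8% and 14.1% of all genes). Tfrc, the transferrin receptor through which dividing precursors take up iron, was at 427, 207, 123 and 290 CPM in DTRADQ at day 2 and at 121, 90.0, 109 and 80.4 at day 3, against 335 to 474 and 371 to 553 in Con. Its shift was -1.57 ± 0.36 (edgeR adjusted p = 0.0252). Cpox, an enzyme of heme synthesis, had a shift of -1.62 that did not pass (edgeR adjusted p = 0.0607). None of the 25 passed with the muscle covariate, without the muscle-high pair or without DTRADQ day 2 replicate 1, with medians of -0.48, -0.37 and -0.31.

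The most mature transcripts gave other values. Alas2, the erythroid enzyme that starts heme synthesis, was at 7280, 10900, 7920 and 12000 CPM in DTRADQ at day 2 and at 10300, 6680, 9680 and 8330 at day 3, and in Con at 3030 to 4900 and 3300 to 4220. DTRADQ libraries lay above Con at both days, and the shift was -0.04 with a 95% interval of -0.68 to 0.59. Hba-a1, an alpha globin gene whose reads may be shared with its copy Hba-a2, had genotype effects of 1.06 and 1.27 and a shift of 0.21 (interval -0.68 to 1.09); Hbb-bs, a beta globin gene with a close copy, had effects of 1.03 and 0.93 and a shift of -0.10. At day 3 the membrane genes that fell were called lower in DTRADQ, and Alas2 and Hba-a1 were called higher; Hbb-bs was not called at either day. Alas2 overlaps Apex2 on the other strand. The sign of the Alas2 estimate changed in 7 fits and that of Hba-a1 in 1, with neither called in any.

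Genes of cell division leaned the same way. All 22 mitosis genes had an estimate below 0, as did 7552 of all 14527 genes, and the median shift was -0.58. Of the 22, 3 passed (0.991% of all genes fell). In 20 of the 22 the DTRADQ libraries of day 3 lay below those of day 2 without overlap, which held for 8.23% of all genes. At day 3 19 of the 22 were called lower in DTRADQ (14.1% of all genes), and at day 2 0 were (4.12%). Mki67, the nuclear protein Ki-67 of cycling cells, was at 660, 489, 396 and 566 CPM in DTRADQ at day 2 and at 286, 268, 280 and 230 at day 3, against 616 to 793 and 582 to 791 in Con. Its shift was -0.95 ± 0.25 (edgeR adjusted p = 0.0493), close to the threshold, and it was called in 2 of 16 fits leaving out 1 library. Cenpf of the kinetochore shifted by -0.93 ± 0.24 (edgeR adjusted p = 0.0463) and was called in 3 of 16; Nusap1 of the spindle, whose span overlaps Oip5, shifted by -0.95 ± 0.22 (edgeR adjusted p = 0.0252) and was called in 8.

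Of 24 DNA replication and nucleotide supply genes, 0 passed for the shift, with a median of -0.27. At day 2 8 were already called lower in DTRADQ (4.12% of all genes), and at day 3 23 were (14.1%). Mcm5, a subunit of the replicative helicase, had effects of -0.37 and -0.40 and a shift of -0.03 (interval -0.34 to 0.27). Without DTRADQ day 2 replicate 1 the median of the mitosis list was -0.39 and 0 of its genes passed; with muscle level as a covariate the median was -0.49 and 0 passed.

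Beside the muscle genes, the upward shift held genes of collagen-rich matrix. Among 17 collagen chains, 3 rose and 0 fell (0.372% of all genes rose), with a median shift of 1.22. Of 23 matricellular proteins, crosslinkers and TIMPs, 6 rose and 0 fell, with a median of 1.03, and in 15 of the 23 DTRADQ libraries of day 3 lay above those of day 2 without overlap, which held for 6.27% of all genes. At day 2, 5 collagen chains were called higher and 2 lower in DTRADQ (4.4% and 4.12% of all genes), and at day 3, 11 and 1 (8.8% and 14.1%).

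Thbs2, the matricellular protein thrombospondin 2, was at 1.85, 1.23, 1.29 and 1.71 CPM in Con and 1.32, 3.06, 3.97 and 1.57 in DTRADQ at day 2. At day 3 it was at 0.768, 1.64, 0.903 and 1.64 in Con and at 16.4, 13.2, 11.0 and 11.3 in DTRADQ. The genotypes overlapped at day 2 and did not at day 3, and the shift was 2.66 ± 0.38 (edgeR adjusted p = 0.0010); it passed in all 16 fits that left out 1 library and in the 10 other alternatives. Lox, the enzyme that crosslinks collagen, was at 0.701, 4.11, 3.16 and 4.31 CPM in DTRADQ at day 2, replicate 1 being the lowest, and at 19.5, 17.2, 13.6 and 17.2 at day 3. Con stayed between 2.80 and 5.85, and the shift was 2.43 ± 0.45 (edgeR adjusted p = 0.0059); it passed in all 16 fits that left out 1 library, and not with the muscle covariate or without the muscle-high pair.

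Cthrc1, a secreted protein of injured and remodelling tissue, had few reads outside DTRADQ at day 3: it had 15 reads over the 4 Con libraries and 17 over the 4 DTRADQ libraries at day 2, and 5 and 201 at day 3; in CPM the DTRADQ day 3 libraries were at 3.05, 2.33, 1.78 and 3.71 and the Con libraries at 0.0427, 0.0400, 0.0903 and 0.0409. Its shift of 4.94 ± 1.00 (edgeR adjusted p = 0.0099) rests on those few control reads. Postn, periostin, was already higher in DTRADQ at day 2 (6.54, 15, 11.3 and 11.5 CPM against 2.03 to 3.24) and reached 32.5, 30.6, 24 and 33.2 at day 3 against 1.66 to 2.98. Its shift was 1.5 ± 0.38 (edgeR adjusted p = 0.0389), called in 5 of 16 fits leaving out 1 library. Sparc, osteonectin, shifted by 1.29 ± 0.30 (edgeR adjusted p = 0.0258).

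Col3a1, a chain of the fibrillar collagen of reticular fibres, was at 2.10, 3.85, 3.24 and 3.72 CPM in DTRADQ at day 2 and at 8.07, 8.09, 7.93 and 14.6 at day 3, against 2.96 to 4.46 and 2.04 to 3.39 in Con. Its shift was 1.90 ± 0.44 (edgeR adjusted p = 0.0252). Col5a2, a chain of the collagen that seeds fibrils, shifted by 1.78 ± 0.45 (edgeR adjusted p = 0.0410) and was called in 4 of 16 fits leaving out 1 library. Col1a1, which encodes the abundant type I collagen of bone, was at 21.3, 56.5, 83.3 and 85.7 CPM in DTRADQ at day 2 and at 182, 171, 144 and 246 at day 3, with 39.1 to 58.4 and 29.1 to 42.1 in Con. It was above Con in all 4 libraries of day 3, but the day 2 spread was wide and its shift of 2.00 ± 0.67 did not pass (edgeR adjusted p = 0.1599, interval 0.69 to 3.30). Of the 10 alternatives other than leaving out 1 library, it did not pass in 7 and passed in the rest. The estimate ran from 0.52 to 2.19 over those 10.

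Among 29 genes of the secretory pathway and unfolded protein response, 2 rose (0.372% of all genes did) and the median was 0.14. Serpinh1, the collagen chaperone HSP47, was at 17.6, 45.7, 43.9 and 47.9 CPM in DTRADQ at day 2, replicate 1 again the low one, and at 90.6, 109, 93.5 and 120 at day 3. Con ranged from 23.0 to 30.5 and from 21.1 to 25.3, and the shift was 1.57 ± 0.31 (edgeR adjusted p = 0.0099). Kdelr3, a receptor that returns proteins to the endoplasmic reticulum, shifted by 2.16 ± 0.44 (edgeR adjusted p = 0.0104). In the fits with the muscle covariate and without the muscle-high pair, 0 of the 29 passed. The general chaperones of the list did not pass; Hspa5, the chaperone BiP, had a shift of -0.04.

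**Figure D4:**
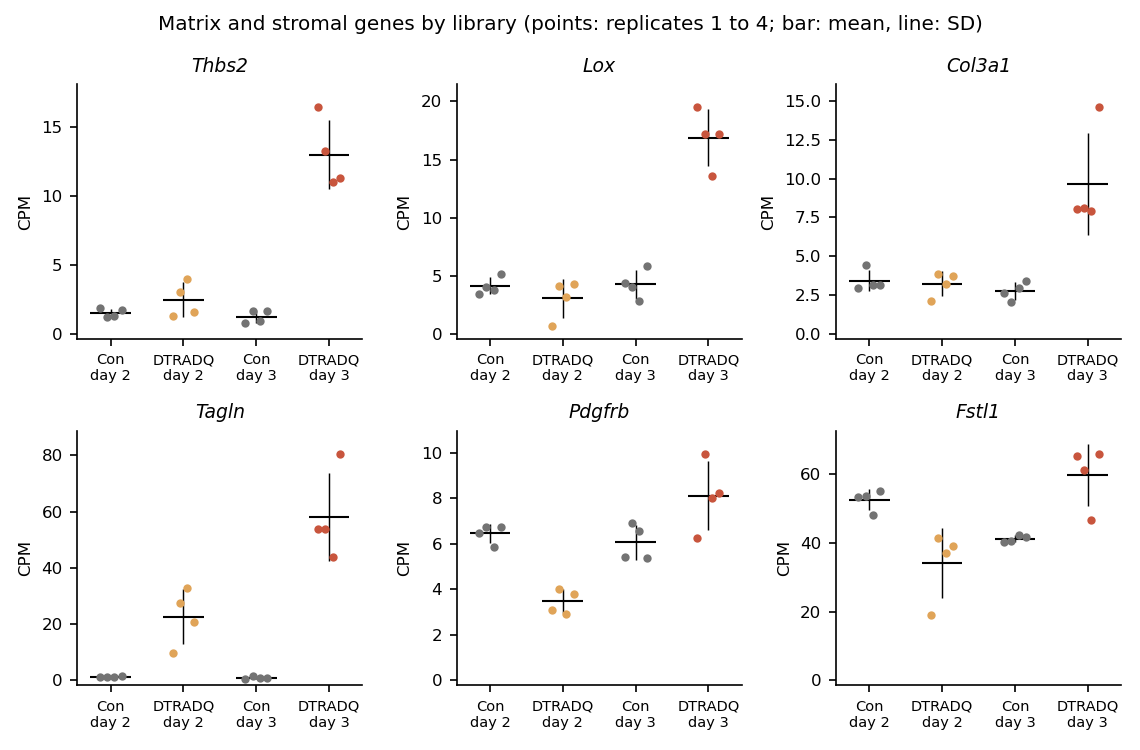
CPM (vertical axes, linear from 0) of 6 genes in the 4 groups of days 2 and 3; points are the 4 libraries of each group, the horizontal bar their mean and the vertical line the SD. Thbs2, Lox and Col3a1 are near Con at day 2 and above it at day 3, Tagln is above Con at both days, and Pdgfrb and Fstl1 are below Con at day 2 and at or above it at day 3.

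Contractile and CCN genes were largely raised before the shift: of 16, 13 were called higher in DTRADQ at day 2 (4.4% of all genes) and 15 at day 3 (8.8%). In the shift 2 rose (0.372% of all genes), with a median of 0.44. Tagln, the smooth muscle protein transgelin, was well above Con at both days, at 9.89, 27.4, 32.7 and 20.7 CPM in DTRADQ against 1.1 to 1.77 in Con at day 2, and 53.9, 54.0, 44.0 and 80.6 against 0.64 to 1.44 at day 3. Its shift was 1.75 ± 0.42 (edgeR adjusted p = 0.0292), called in 7 of 16 fits leaving out 1 library. Acta2, smooth muscle actin, had effects of 1.31 and 2.78 and a shift of 1.47 ± 0.49 that did not pass (edgeR adjusted p = 0.1555). Of the 10 alternatives other than leaving out 1 library, Acta2 did not pass in 7 and passed in the rest. Ccn5 was the other member that rose: it was called lower in DTRADQ at day 2 (effect -1.32) and not called at day 3 (0.29), a shift of 1.61 ± 0.38 (edgeR adjusted p = 0.0263).

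The matrix medians were lower once muscle level entered the fit. With muscle level as a covariate the collagen median was 0.36 with 0 of its genes passing, and the matricellular median 0.35 with 1 passing, while the contractile median was 0.39 with 0 passing. Without the muscle-high pair of day 3 the collagen median was 0.93 with 0 passing and the matricellular median 0.93 with 1 passing. Without DTRADQ day 2 replicate 1 they were 1.03 with 1 passing and 0.88 with 3 passing. Whether muscle carried any of the collagen and matricellular shifts was not tested. Endothelial genes, another stromal class, had 0 of 20 past the threshold, with a median of 0.46 and of 0.12 with the covariate; 20 osteoblast and osteocyte genes had a median of 0.29 and 0 past it.

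**Figure D5:**
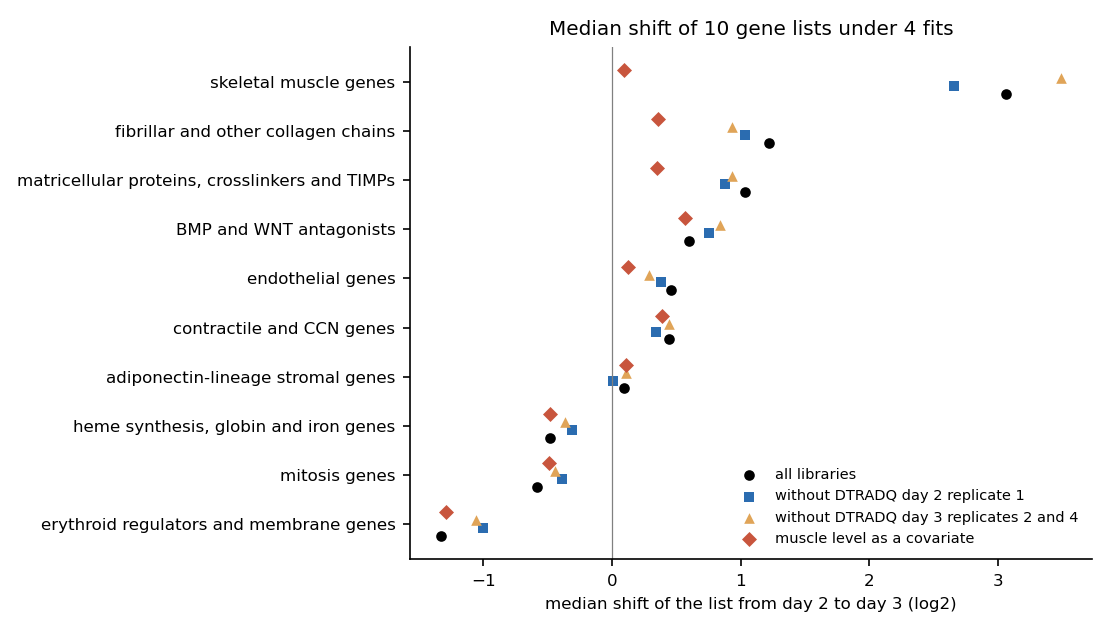
Median shift (horizontal axis, log2) of 10 gene lists (vertical axis) under 4 fits: all libraries, without DTRADQ day 2 replicate 1, without DTRADQ day 3 replicates 2 and 4, and with muscle level as a covariate. The erythroid median stays between -1.33 and -1.0 in the 4 fits, the collagen median goes from 1.22 to 0.36 with the covariate, and the muscle median from 3.06 to 0.09. The covariate is the mean of the muscle list itself, so the drop of the muscle median was set in advance.

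Some genes crossed from one side of Con to the other. The rule for reversals, a call in the shift and at both days with opposite signs, named 4 genes that rose, Fbn1, Nlrc3, Pdgfrb and Fstl1, and F930017D23Rik, which fell. Pdgfrb, the PDGF receptor of pericytes and stromal progenitors, was at 3.12, 4.02, 2.94 and 3.82 CPM in DTRADQ against 5.88 to 6.76 in Con at day 2, and at 6.27, 9.97, 8 and 8.25 against 5.40 to 6.91 at day 3. The groups did not overlap at day 2 and overlapped in 1 library at day 3, and the shift was 1.32 ± 0.22 (edgeR adjusted p = 0.0032), called in all 16 fits leaving out 1 library. Fstl1, a secreted follistatin-like protein, was at 18.9, 41.2, 36.9 and 39.1 CPM against 48.1 to 55.1 at day 2 and at 65.2, 61.0, 46.7 and 65.8 against 40.1 to 42.3 at day 3, a shift of 1.17 ± 0.25 (edgeR adjusted p = 0.0145).

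Fbn1, the microfibril protein fibrillin 1, had effects of -0.87 and 0.68, and Nlrc3, an innate immune regulator, -0.90 and 0.59; the adjusted p of these 4 effects ran from 0.0097 to 0.0493 in edgeR. F930017D23Rik went from 0.67 to -0.88. Bmp8b also met the signs but not the expression limit of the rule: it had 17 and 96 reads in Con and DTRADQ at day 2 and 45 and 3 at day 3, with 76 of the 96 in 1 library.

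Col6a1, a chain of collagen VI, was called lower than Con at day 2 and was not called at day 3: 1.87, 3.06, 2.28 and 3.91 CPM against 5.75 to 9.78, then 5.12, 7.53, 5.62 and 9.62 against 4.10 to 5.67. Its shift was 1.97 ± 0.38 (edgeR adjusted p = 0.0084). Pdgfra, the PDGF receptor of mesenchymal progenitors, moved toward Con without reaching it: 0.389, 0.874, 1.25 and 0.391 CPM against 3.35 to 4.17 at day 2, and 1.36, 1.83, 1.26 and 1.66 against 2.20 to 2.82 at day 3, a shift of 1.58 ± 0.40 (edgeR adjusted p = 0.0395) that was called in 4 of 16 fits leaving out 1 library. Over the 17 PDGF and TGF-beta ligands and receptors, these 2 receptors rose and 0 fell (0.372% and 0.991% of all genes), with a median of 0.20. With the muscle covariate or without the muscle-high pair 0 passed, and without DTRADQ day 2 replicate 1, 1 passed. Of the ligands, Tgfb2 had effects of 1.29 and 3.01 and a shift of 1.72 that did not pass (edgeR adjusted p = 0.1791).

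Among 13 BMP and WNT antagonists, Dkk3 and Fstl1 rose and Wif1 fell (0.372% of all genes rose and 0.991% fell), and the median was 0.60. With the muscle covariate or without the muscle-high pair 0 of the 13 passed, at medians of 0.57 and 0.84. Without DTRADQ day 2 replicate 1, 1 rose and 0 fell. Dkk3, of the Dickkopf family, was at 0.545, 0.787, 1.32 and 1.08 CPM in DTRADQ at day 2 and at 5.45, 4.60, 4.23 and 4.15 at day 3, with Con between 0.581 and 1.18 at both days, a shift of 2.16 ± 0.48 (edgeR adjusted p = 0.0194). Wif1, WNT inhibitory factor 1, was at 7.48, 6.55, 6.33 and 4.80 CPM in DTRADQ at day 2 and at 1.47, 1.83, 2.25 and 1.03 at day 3, against 6.72 to 11.3 and 5.40 to 8.40 in Con, a shift of -1.65 ± 0.36 (edgeR adjusted p = 0.0194).

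The defining genes of the ablated lineage were low at both days. Of 26 adiponectin-lineage stromal genes, 16 were called lower in DTRADQ at day 2 (4.12% of all genes) and 15 at day 3 (14.1%). The median shift was 0.09, and the 2 that rose (0.372% of all genes did) were Pdgfra and Pdgfrb. Adipoq, adiponectin itself, was at 0.389, 0.612, 0.221 and 0.979 CPM against 55.0 to 58.5 at day 2, and at 0.600, 0.332, 0.264 and 0.391 against 32.1 to 54.3 at day 3, a shift of 0.12 with a 95% interval of -1.21 to 1.4. Cxcl12, a niche chemokine for hematopoietic stem cells, was at 30.0, 44.1, 36.1 and 33.3 CPM against 372 to 449, and then at 20.3, 31.5, 28 and 23.3 against 369 to 459, a shift of -0.49 (interval -0.98 to 0.00; edgeR adjusted p = 0.5059). Lepr, the leptin receptor of perivascular stroma, had effects of -3.92 and -3.97 and a shift of -0.05 (interval -0.74 to 0.64), and Kitl, stem cell factor, -1.92 and -2.31 and a shift of -0.39 (interval -0.94 to 0.15). The loss of these transcripts was in place in all 4 DTRADQ libraries of day 2, replicate 1 included.

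Other blood lineages gave few calls. Of 24 B lineage genes 1 rose (0.372% of all genes did), Cd22, an inhibitory receptor of mature B cells. In DTRADQ it was at 24.1, 14.2, 17.1 and 20.4 CPM against 27.8 to 37.8 in Con at day 2. At day 3 it was at 27.0, 21.4, 32.9 and 50.5 against 14.4 to 30.6. Its shift was 1.39 ± 0.37 (edgeR adjusted p = 0.0493); it was called in 4 of 16 fits leaving out 1 library and with the muscle covariate, and not without the muscle-high pair. Cd79a, of the B cell receptor, had a shift of 1.1 that did not pass (edgeR adjusted p = 0.1219), with a change of -0.81 within Con and 0.31 within DTRADQ. Of the 10 alternatives other than leaving out 1 library, Cd79a did not pass in 7 and passed in the rest. All 17 primary granule genes of neutrophil precursors had an estimate below 0, as did 7552 of all 14527 genes, and 0 passed, with a median of -0.41. Of 22 mature neutrophil genes 0 passed; Ly6g had effects of 0.84 and 0.41 and a shift of -0.43 (interval -0.95 to 0.10). T and NK genes (0 of 24) had a median of 0.56, and Cd3e, a T cell receptor subunit, a shift of 0.44 (interval -0.41 to 1.30).

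One chemokine was called on the strength of single libraries. Cxcl1, a neutrophil attractant, was at 73.1, 0.524, 1.55 and 1.37 CPM in DTRADQ at day 2 and at 1.47, 0.776, 0.198 and 1.32 at day 3; Con was at 0.0580, 0.194, 0.840 and 0.131 and at 0.341, 0, 12.1 and 0.900. Its shift of -7.72 ± 1.76 (edgeR adjusted p = 0.0234) was called in 10 of 16 fits leaving out 1 library, not in the one without DTRADQ day 2 replicate 1, and was -3.65 at its weakest among them. It was called in 5 of 10 other alternatives, where it was -1.5 at its weakest, and not with voom, only the groups compared, the muscle covariate or without either pair of DTRADQ day 3 libraries; 938 of its 979 DTRADQ day 2 reads were in replicate 1. Ccl2, a monocyte attractant, was also highest there, at 87.9 CPM against 14.9 to 19.6 in the other 3, and its shift of -1.25 did not pass (edgeR adjusted p = 0.5419). Of 21 cytokine and chemokine genes, Cxcl1 was the only one called (1.36% of all genes were), and the median was -0.19.

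For comparison, the shift of the genotype effect from day 1 to day 2, which shares the day 2 libraries with this one, had 0 genes past the threshold in edgeR (0%), 746 with an unadjusted p under 0.05, 9 in DESeq2 and a smallest adjusted p of 0.1131. Its medians were -0.48 for the erythroid list, -0.34 for mitosis genes, 0.86 for collagen chains and 0.77 for the matricellular list. For Thbs2 the estimate from day 1 to day 2 was 1.97 and from day 2 to day 3 2.66, for Postn 1.43 and 1.5, and for Slc4a1 0.00 and -1.60. Without DTRADQ day 2 replicate 1 the earlier shift had 38 genes past the threshold.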

How the data were processed

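The series holds SMARTer RNA-seq of whole femoral marrow in 32 libraries, 4 in each of 8 groups. Per the file headers, each deposited table gives read counts per gene, the authors' CPM (counts scaled to the library total) and their RPKM (CPM per kilobase of the listed length), for 41388 genes, 97.26% with a symbol. GRCm38, featureCounts 1.45, Subread, STAR 2.0.4b and bcl2fastq appear, with no role or order, per the submitters' processing notes. Strand setting, annotation release and treatment of multiply mapped reads: each is not given in the sources used here. The deposited CPM were recomputed from the counts and differed by at most 4.4e-10. The CPM printed in this report are other values, scaled to the TMM-adjusted total of the filtered genes.

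The counts were normalized by TMM and tested with edgeR 4.0.16 (R 4.3.3), using filterByExpr with a minimum count of 10 and its quasi-likelihood test on 8 group means over all 32 libraries; p-values were adjusted by Benjamini-Hochberg over 14527 genes, with 0.05 as the threshold. SE is the estimate over the square root of its F statistic. The series' design gives 4 mice per group; p-values measure the spread between these libraries. Depth varied by library, and at these depths a simulation on 14367 genes recovered 52% and 54% of genes given a shift of 1 and -1. It recovered 88% and 96% of those given 2 and -2. The changed genes, 50 for each shift, all had a mean log2 CPM above 1, so the rates do not cover lower genes. Counts were drawn for each gene separately, without deviations that a whole library shares.

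Named genes were the 12 largest rises and 12 largest falls averaging 1 or more in log2 CPM, up to 3 members of each list with a call, up to 6 reversals and 20 fixed genes. The comparison and the 37 gene lists were chosen with earlier results of these data known. Alternatives were DESeq2 1.42.0, its size factors within edgeR, limma 3.58.1 voom with library weights, no filter, only the groups compared, the replicate block, a muscle covariate and leaving out libraries; leaving out pairs of DTRADQ day 3 libraries by muscle level was chosen after seeing the data. Promoters came from RefSeq (GRCm38.p6), matched by symbol. A few members of the red cell and heme lists enter the counts and are not reported here by name.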

Additional observations from a re-analysis of the deposited data

Results flagged for a closer look

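In groups of 4, a library was singled out where its gap to the nearest of the others exceeded Dixon's 95% critical share of the group's range; chance does this in about 1 of 20 groups, and here 29 of 280 groups (10.4%) were. Con day 2 replicate 2 was high in muscle genes, with 196 summed CPM against 58.3 to 63.6, Myl1 at 27.1 CPM, Acta1 at 45.9, Ckm at 9.96 and Tnnt3 at 17.7. DTRADQ day 2 replicate 2 was likewise high in its group, with 82.1 summed CPM against 36.3 to 42.6, Myl1 at 6.64 CPM, Acta1 at 13.9, Ckm at 3.5, Tnnt3 at 6.99 and Tnni2 at 7.95. Both libraries belong to day 2 and to different genotypes.

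DTRADQ day 2 replicate 1 was high in Ccl2 at 87.9 CPM, Cxcl1 at 73.1 and Mcm5 at 164 (others 129 to 132), and low in Serpinh1 at 17.6 (others 43.9 to 47.9). DTRADQ day 2 replicate 4 was high in Oas1e at 15.1 CPM. DTRADQ day 3 replicate 4 was high in Col3a1 at 14.6 CPM and low in Mcm5 at 110.0 and Oas1e at 0.293.

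Among the remaining Con libraries, day 2 replicate 2 was high in Col3a1 at 4.46 CPM and Serpinh1 at 30.5, day 2 replicate 3 in Mki67 at 793 and day 2 replicate 4 in collagen chains at 178 summed CPM. Con day 3 replicate 3 was high in Cxcl1 at 12.1 CPM, Ccl2 at 8.58 and Cthrc1 at 0.0903, and low in Pdzk1 at 0.677. Con day 3 replicate 4 was high in Xpo7 at 455 CPM and in the erythroid list at 9120 summed CPM (others 7040 to 7160).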

How the results depend on the processing

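All 54 rises and 144 falls kept their sign in every fit that tested them, and the number of calls moved. These genes were picked for their shifts in the same libraries that the fits reuse, so a kept sign is a weak check. Where 198 genes (54 higher, 144 lower) were called for the shift of the genotype effect from day 2 to day 3, DESeq2 called 340 (96 and 244), the fit on only the groups compared 445 (135 and 310), voom 707 (231 and 476), the fit without 2 untreated Con libraries 475 (130 and 345), the muscle covariate 20 (6 and 14) and the fit without the muscle-high pair of DTRADQ day 3 1 (1 and 0). Leaving out 1 library gave 59 to 318 calls (17 to 61 higher, 40 to 257 lower). It gave 59 without DTRADQ day 2 replicate 1 or day 3 replicate 4, 318 without DTRADQ day 2 replicate 3, 72 without DTRADQ day 2 replicate 4 or Con day 2 replicate 1, 70 and 123 without Con day 2 replicates 2 and 4, 80 without DTRADQ day 3 replicate 2 and 79 without Con day 3 replicate 4; the cause was not tested.

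The genotype effect at day 2 had 2621 calls with only the groups compared, 3608 with voom and 2896 without the untreated libraries (574 to 1484 leaving out 1), and the genotype effect at day 3 had 5138, 5724, 5023 and 1405 without the muscle-high pair (2258 to 3144). For day 3 against day 2 within DTRADQ the counts were 1331, 1818, 1366, 289 with the covariate and 89 without that pair (398 to 945). For day 3 against day 2 within controls, DESeq2 called 1, no filter 3, voom 1 and leaving out 1 library 0; for the shift of the genotype effect from day 1 to day 2 DESeq2 called 9, no filter 2 and leaving out 1 library 0 to 38. Deviations from the group means had a median r of 0.06 between libraries of the same replicate number (6 of 24 pairs over 0.1). Between different numbers the median r was -0.01 (11 of 72 pairs over 0.1). These weak correlations do not settle whether the numbers pair the libraries. With a replicate block 227 genes were called.

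Genes near 0 changed sign. Hba-a1 was -0.28 with the covariate, and Adipoq -0.13 and -0.11 without DTRADQ day 2 replicate 3 and day 3 replicate 1, with 0.54 as its highest when 1 library was left out. Mcm5 was 0.00 with voom, 0.04 with the covariate, 0.05 without the muscle-high pair, and 0.08 and 0.02 without DTRADQ day 2 replicate 1 and day 3 replicate 4, with -0.08 as its lowest. Alas2 was 0.22 with the covariate, 0.17 without the pair, and 0.05, 0.11, 0.05, 0.09 and 0.04 without DTRADQ day 2 replicates 2 and 4, Con day 2 replicate 1, DTRADQ day 3 replicate 2 and Con day 3 replicate 4, with -0.19 as its lowest. Lepr was 0.05 with voom, 0.30 with the covariate, 0.21 without the pair, and 0.21, 0.03, 0.03, 0.05 and 0.05 without DTRADQ day 2 replicate 3, Con day 2 replicate 2, DTRADQ day 3 replicates 2 and 4 and Con day 3 replicate 4, with -0.17 as its lowest.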

Other observations

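Some gene groups outside the comparisons above gave no call and are described by their medians, beside -0.02 over all genes. Over all genes, 4.4% were called higher in DTRADQ at day 2, and 8.8% higher and 14.1% lower at day 3. Of 24 interferon response genes 0 passed for the shift, with a median of 0.36, and 8 were called higher and 1 lower at day 3. Of 18 megakaryocyte and platelet genes 0 passed, with a median of 0.01. In DTRADQ 6 of these 18 were called higher at day 2 and 8 at day 3. Of 19 cholesterol synthesis and uptake genes 0 passed, with a median of 0.07, and 6 were called higher at day 3. Of 38 cytosolic ribosomal protein genes 0 passed, with a median of -0.02 and genotype medians of -0.34 at both days.

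Car2, a carbonic anhydrase of osteoclasts that is also abundant in red cell precursors, was the 1 osteoclast gene of 12 called (1.36% of all genes were). It was at 10500, 8670, 4440 and 12400 CPM in DTRADQ at day 2 and at 3240, 2400, 3300 and 1950 at day 3, and its shift was -1.61 ± 0.38 (edgeR adjusted p = 0.0263). Acsl1, an acyl-CoA synthetase, was the 1 mature adipocyte gene of 10 that fell (0.991% of all genes did). It was called higher in DTRADQ at day 2 (effect 0.67) and not at day 3 (-0.05). Its shift of -0.72 ± 0.19 (edgeR adjusted p = 0.0466) was called in 2 of 16 fits leaving out 1 library.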
